A study of Homo sapiens with 12 samples.

Results

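H460 is an established line of large cell lung carcinoma, grown here in RPMI medium. The cells were left in normoxia or kept at 1% O2 for 24 h, and strand-specific poly(A)+ RNA was sequenced from 2 replicates of each condition. The 4 H460 libraries are part of a series of 12, in which RKO colorectal carcinoma cells and A549 lung carcinoma cells, both in DMEM, went through the same exposure. The study asked how far the response to low oxygen is shared between cancer cell types. The members described here are the genes over 0.5 CPM (the count of a gene scaled to the total of its library) in at least 2 of the 4 H460 libraries, which were 14080 of the 25369 genes in the count table. A further 6215 genes of the table had no count in any H460 library. No engineered allele or drug was used, all cells of a group come from a single line, and nothing in the sample records ties a normoxia replicate to a hypoxia replicate. The p-values measure the spread between replicate libraries of that line. Because H460 cells grew in another medium than RKO and A549 cells, a difference between the lines and a difference between the media cannot be told apart.

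Cells sense oxygen through enzymes that spend it. The EGLN prolyl hydroxylases mark the alpha subunits of the hypoxia-inducible factors (HIF1A and EPAS1) for destruction through VHL, and the marking fails when oxygen runs low. The alpha subunit then pairs with ARNT and binds short DNA elements whose core reads ACGTG or GCGTG. Genes known to respond in this way serve glucose uptake and glycolysis, pH control, blood vessel growth and matrix crosslinking. Low oxygen is also known to slow energy-costly work such as ribosome assembly and DNA synthesis.

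The 4 libraries held between 27350424 and 34716447 counts. Levels are given as CPM scaled with TMM factors, which compare libraries through the bulk of their genes. The 10 most abundant genes took 4.24% and 4.22% of the counts in normoxia and 7.79% and 7.23% in hypoxia. Scaling by library size alone, without TMM, moved the log2 fold changes by -0.35 at the median gene, and every change below is stated relative to the TMM reference. Keratins of simple epithelia were abundant. KRT8 had 718 and 654 CPM in normoxia and 506 and 495 CPM in hypoxia, and KRT18 had 468 and 468 CPM in normoxia and 420.0 and 412 CPM in hypoxia. The adhesion genes EPCAM and CDH1, usual in carcinoma cells, reached at most 0.459 and 0.574 CPM in any library. Surfactant genes and the squamous markers KRT5, KRT6A and KRT14 had between 0 and 2 counts per library, and the leukocyte, endothelial and fibroblast genes PTPRC, CD3E, CDH5 and COL1A2 had between 0 and 3. Other genes of those marker lists were read, with 17.1 to 48.7 CPM for CD68, 5.02 to 11.97 CPM for CD14, 7.47 to 13.4 CPM for COL3A1 and 8.77 to 14.9 CPM for PDGFRB. Of the neuroendocrine markers, NCAM1 had 145 and 96.1 CPM in normoxia and 319.5 and 217 CPM in hypoxia, CHGA had 36.6 and 24.0 CPM in normoxia and 17.3 and 14.4 CPM in hypoxia and SYP had 4.87 and 5.49 CPM in normoxia and 5.48 and 5.1 CPM in hypoxia, while NEUROD1 had no count. Over 0.5 CPM in at least 2 libraries were 4 of 6 epithelial, 2 of 6 alveolar, 0 of 5 squamous, 3 of 6 neuroendocrine, 2 of 5 leukocyte, 1 of 5 endothelial and 3 of 5 fibroblast markers. These levels are those of an epithelial line with little E-cadherin and no surfactant mRNA. NKX2-1, a lineage factor of lung, stood apart from the other lung markers, with 2 and 0 counts in normoxia and 87 and 98 counts in hypoxia.

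Of the 14080 genes tested with edgeR, 3467 (24.6%) were called higher and 3837 (27.3%) lower in hypoxia, a call being an adjusted p under 0.1 with a fold change over 1.5. The median log2 fold change over all tested genes was -0.04. Calls over 4-fold numbered 505 higher and 540 lower, and calls over 8-fold 182 higher and 109 lower. Scaling by library size alone turned the split into 2075 higher and 5758 lower, so that 26.5% instead of 47.5% of the calls were higher. The balance between rises and falls thus depended on the scaling. In what follows, a value after "rose by" or in parentheses after a gene is its log2 fold change with the standard error, and a gene is said to rise or fall only where it was called. Each count of called genes in a list is to be read against the 24.6% higher and 27.3% lower among all tested genes.

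**Figure D1:**
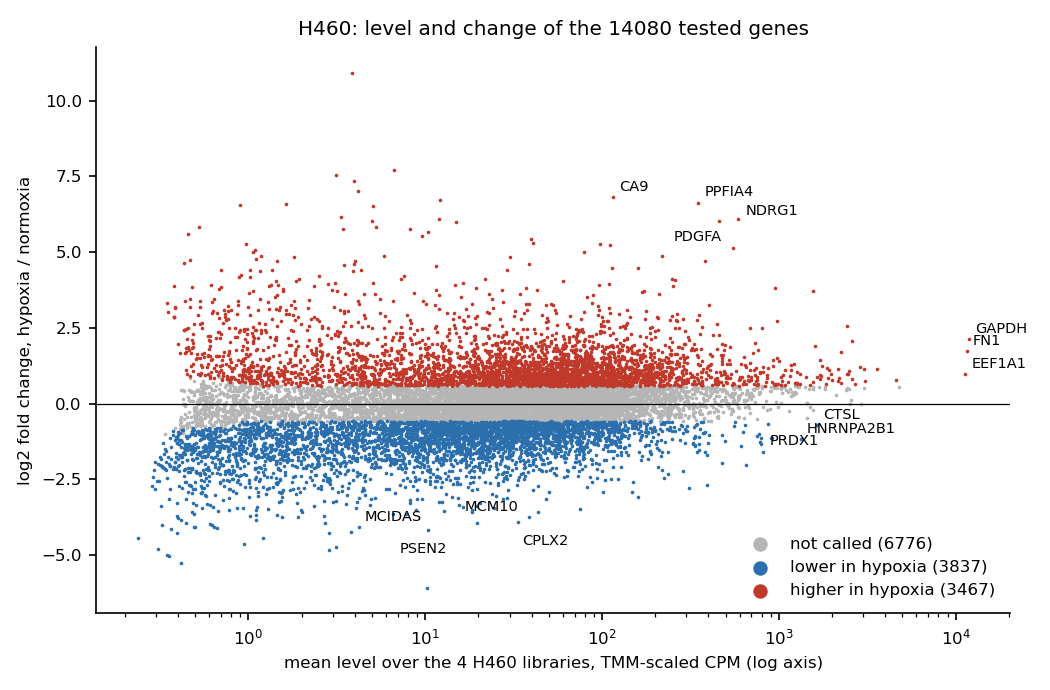
Each point is 1 of the 14080 tested H460 genes, placed by its mean TMM-scaled CPM over the 4 libraries (log axis) and its log2 fold change of hypoxia over normoxia. Red points are the 3467 genes called higher, blue points the 3837 called lower and grey points the 6776 not called. CA9, PPFIA4, PDGFA and NDRG1 lie at the top, and GAPDH, FN1 and EEF1A1 are the most abundant of the genes that rose.

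Promoters are shown for CA9, PPFIA4 and PDGFA, the genes with the highest fold changes whose RefSeq promoter in GRCh38.p14 held a match to the core ACGTG or GCGTG on either strand. Each sequence gives the 250 bases before the annotated start, 5′ to 3′ on the strand of the gene, with matches in capitals. Positions count back from the start, whose nearest upstream base is -1. The CA9 promoter (chr9:35673678-35673927, plus strand) had 1 match, CACGT at -18, which is ACGTG on the other strand. The PPFIA4 promoter (chr1:203026241-203026490, plus strand) had CACGT at -119 and ACGTG from the next base, which overlap in the palindrome CACGTG, and GCGTG at -84. The PDGFA promoter (chr7:520227-520476, minus strand) had GCGTG at -186.
CA9: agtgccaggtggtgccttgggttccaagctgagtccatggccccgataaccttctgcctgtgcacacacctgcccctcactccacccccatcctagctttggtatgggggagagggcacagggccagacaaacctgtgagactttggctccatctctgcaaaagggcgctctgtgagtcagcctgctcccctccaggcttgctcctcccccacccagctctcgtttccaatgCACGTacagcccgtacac
PPFIA4: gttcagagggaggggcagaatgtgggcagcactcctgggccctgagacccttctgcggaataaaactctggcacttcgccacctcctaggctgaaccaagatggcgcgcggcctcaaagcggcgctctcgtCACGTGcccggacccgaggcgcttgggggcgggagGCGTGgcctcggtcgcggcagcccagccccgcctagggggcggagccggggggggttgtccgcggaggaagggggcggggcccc
PDGFA: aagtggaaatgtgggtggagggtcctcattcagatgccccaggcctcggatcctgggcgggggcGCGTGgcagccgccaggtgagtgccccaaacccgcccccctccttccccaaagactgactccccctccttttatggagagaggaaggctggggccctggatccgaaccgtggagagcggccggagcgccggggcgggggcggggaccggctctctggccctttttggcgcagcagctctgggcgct

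The core is short and common, so its share was read over all tested genes. Windows of 300 bases, from 250 before to 50 after the gene start in the count table, were read from GRCh37 for all 14080 genes, because the RefSeq promoter table held only 10885 of them. The RefSeq starts of the promoters printed above were not compared with these gene starts and may differ from them. The printed matches may therefore lie outside these windows. ACGTG on either strand was present in 25.4% of the windows. The share was 28.5% for genes called higher, 22.6% for genes called lower and 25.3% for genes not called. It was 34.3% among genes over 4-fold higher, 37.4% among those over 8-fold higher and 18.9% among those over 4-fold lower. GCGTG was in 48.9% of the windows, 47.6% for genes called higher, 49.6% for genes called lower and 49.1% for genes not called. Its share was 42.8% among genes over 4-fold higher and 42.9% among those over 8-fold higher. Either core was in 61.0% of all windows, 61.6% for genes called higher, 60.2% for genes called lower, 60.2% for genes over 4-fold higher, 62.1% for those over 8-fold higher and 55.9% for those over 4-fold lower. Median GC content of the windows was 64.7% for genes called higher and 63.3% for genes called lower. A match describes the letters of the window and is not a binding site.

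CA9 (chromosome 9, 35673915 to 35681154 on GRCh37), a carbonic anhydrase of the cell surface, had 3.24 and 0.973 CPM in normoxia and 235 and 221 CPM in hypoxia. Both hypoxia libraries were far above both normoxia libraries, a log2 fold change of 6.81 ± 0.28 (adjusted p = 3.43e-09). PPFIA4 (chromosome 1, 203020311 to 203047864), a liprin of the alpha family, went from 8.44 and 5.7 CPM to 711 and 677 CPM, a change of 6.63 ± 0.17. PDGFA (chromosome 7, 536897 to 559481), a growth factor chain, went from 14.5 and 13.2 CPM to 936 and 881 CPM, a change of 6.04 ± 0.12. The replicates of each condition were close together for both genes. LINC00887 (5.99), CAPN12 (5.65), LOX (5.53) and KIAA1244 (5.42) followed, with the known hypoxia marker NDRG1 at 6.08.

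Several genes were nearly silent in normoxia. PCK1, the cytosolic enzyme that starts gluconeogenesis from oxaloacetate, had 0 and 0 counts in normoxia and 203 and 241 counts in hypoxia. With normoxia set to a floor of 3 counts over its libraries, it was 174-fold higher in hypoxia. The 95% counting interval of its ratio began at 141. ISM2 had 3 and 1 counts in normoxia and 410 and 335 counts in hypoxia, 219-fold higher with a 95% counting interval of 85.1 to 806. C4orf47 had 9 and 6 counts in normoxia and 556 and 832 counts in hypoxia, 109-fold higher (65.7 to 195), and PRTN3 had 8 and 4 counts in normoxia and 281 and 313 counts in hypoxia, 58.2-fold higher (33.1 to 113). UPK1A had 5 and 5 counts in normoxia and 282 and 280 counts in hypoxia, and its antisense neighbour UPK1A-AS1 had 2 and 5 counts in normoxia and 289 and 279 counts in hypoxia. The UPK1A genes overlap on opposite strands, and counting was by strand. The intervals cover counting error only.

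The deepest falls among well counted genes were those of PSEN2 (chromosome 1, 227058273 to 227083804), a catalytic subunit of gamma-secretase, and MCIDAS, a regulator of multiciliated cells. PSEN2 went from 19.5 and 20.03 CPM to 1.38 and 0.829 CPM and MCIDAS from 6.97 and 8.95 CPM to 0.383 and 0.542 CPM, changes of -4.18 ± 0.20 and -4.08 ± 0.27. MCM10, a gene of DNA replication, went from 35.0 and 38.9 CPM to 2.14 and 2.58 CPM. E2F1, the transcription factor that drives entry into S phase, went from 66.8 and 76.8 CPM to 5.17 and 5.45 CPM. The conditions did not overlap in any of these genes, which was a rule of their choice and held for 86.4% of all tested genes. CPLX2 (-3.90), PYCRL (-3.66), FAM111B (-3.64) and GPATCH4 (-3.58) fell by similar amounts. MFAP3L, CYP4F3 and FAXC were nearly silent in hypoxia, with 13, 11 and 12 counts over both hypoxia libraries against 413, 369 and 184 over both normoxia libraries. RPS6KL1 lay below all of these, with 554 and 827 counts in normoxia and 10 and 7 counts in hypoxia, and is named after its values were seen because 1 of its counts missed the count minimum.

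**Figure D2:**
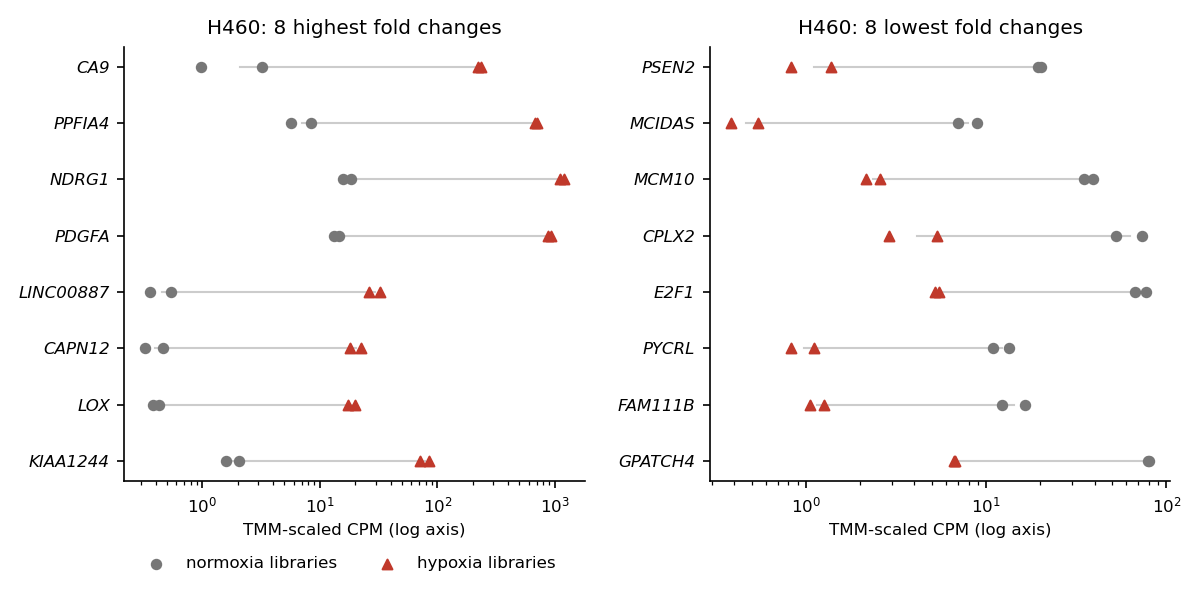
TMM-scaled CPM (log axis) in each H460 library for the 8 genes with the highest (left) and the 8 with the lowest (right) log2 fold changes among well counted genes. Grey circles are the 2 normoxia libraries, red triangles the 2 hypoxia libraries, and the grey line joins the means of the conditions. The genes were chosen for extreme changes without overlap between conditions, so the separation seen here follows from the choice. The conditions did not overlap in 86.4% of all tested genes. PPFIA4 had 5.70 and 8.44 CPM in normoxia against 677 and 711 CPM in hypoxia.

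The largest changes in CPM were in abundant mRNAs. GAPDH went from 4614 and 4219.7 CPM to 20677 and 17804 CPM, FN1 from 5828 and 4813 CPM to 18874 and 16578 CPM and PGK1 from 767 and 645 CPM to 4179 and 4087 CPM. GAPDH and PGK1 are glycolytic enzymes, and FN1 encodes fibronectin. EEF1A1 (elongation factor 1), VIM (vimentin), HSPA5, SLC2A3 and NEAT1 completed the 8 largest gains. EEF1A1 and GAPDH have many processed copies in the genome, so the reads that upstream alignment assigned to them are uncertain. The largest losses were in HNRNPA2B1, from 1768 and 1917 CPM to 799 and 834 CPM, and PRDX1, from 1302 and 1142 CPM to 385 and 426 CPM. HNRNPA2B1 is an RNA-binding protein and PRDX1 a peroxidase. CTSL, SLC7A11, TXNRD1, HSP90AA1, MAT2A and ABCC2 were the others, and SLC7A11 (cystine import), TXNRD1 (thioredoxin reduction) and ABCC2 (drug export) belong to the NRF2 program described further on.

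Of 12 tested genes of the HIF pathway, 6 were higher and 1 was lower. HIF1A itself was not called, with 307 and 293 CPM in normoxia and 299 and 246 CPM in hypoxia (log2 fold change -0.14 ± 0.11, adjusted p = 0.247). EPAS1, the HIF2 alpha subunit, went from 109 and 98.4 CPM to 288 and 268 CPM, and ARNT, their common partner, from 49.8 and 54.9 CPM to 175 and 163 CPM. ARNT2, a paralog of ARNT, fell from 3.6 and 2.81 CPM to 0.536 and 1.02 CPM. The feedback regulators moved up together. EGLN3 rose by 2.45 ± 0.19, EGLN1 by 1.55 ± 0.09 and CITED2, which competes with HIF for the coactivators EP300 and CREBBP, by 2.97 ± 0.11. CDK8, the kinase of the Mediator complex that the study examined in another line, rose by 1.03 ± 0.11, while VHL (0.00), EP300 (0.34) and HIF1AN (0.42) were not called.

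The JmjC histone demethylases and the TET enzymes use oxygen as a substrate. Of 23 tested, 14 (60.9%) were higher and 4 (17.4%) lower, with a median of 0.88. KDM3A went from 49.8 and 49.6 CPM to 368 and 347 CPM, KDM5B rose by 2.49 ± 0.13, KDM7A by 2.22 ± 0.10 and KDM4B by 1.89 ± 0.09. TET1 (1.69) and TET2 (1.73) rose, and TET3 fell (-0.63). The other falls within the family were in JMJD4 (-2.02 ± 0.12), MINA (-1.69 ± 0.10) and JMJD8 (-1.43 ± 0.10). MINA and JMJD4 are hydroxylases of ribosomal and translation proteins, not histone demethylases. Of 17 DNA methylation and Polycomb enzymes 8 (47.1%) were higher and 4 (23.5%) lower. DNMT3B (-1.87 ± 0.21), UHRF1 (-2.29 ± 0.10), EZH2 (-0.85 ± 0.09) and DNMT1 (-0.67 ± 0.09) fell. EZH1, the alternative catalytic subunit to EZH2, rose by 1.24 ± 0.08, CBX7 by 1.22 ± 0.15 and DNMT3A by 0.77 ± 0.11. JARID2 (0.99), BMI1 (0.87), RNF2 (0.87), RING1 (0.68) and CBX8 (0.66) were the other higher genes. Only 3 of the 17 were higher with library size alone.

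Glycolytic genes rose from glucose uptake to lactate export. Of 21 tested genes 17 were called higher and none lower, with a median of 1.29. The glucose carrier SLC2A3 went from 247 and 197 CPM to 2866 and 2932 CPM, whereas SLC2A1 rose less, by 1.12 ± 0.16. HK2 rose by 2.76 ± 0.10 and HK1 by 0.60 ± 0.09. ENO2 went from 32.3 and 29.0 CPM to 1165 and 984 CPM, a change of 5.13 ± 0.13, and its more widely expressed paralog ENO1 had 2587 and 2402 CPM in normoxia and 3533 and 3569 CPM in hypoxia (log2 fold change 0.51 ± 0.10, under the fold threshold). Per length, in TMM-scaled CPM per kilobase (RPKM), mean levels were 12.6 to 443 for ENO2 and 767 to 1092 for ENO1, from normoxia to hypoxia. ALDOC rose by 3.70 ± 0.10 and ALDOA by 1.12 ± 0.11. Of the regulators of phosphofructokinase, PFKFB4 rose by 4.87 ± 0.17 and PFKFB3 was not called (-0.08 ± 0.10, adjusted p = 0.484). PKM (0.49) and PFKM (0.33) were not called.

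Genes at the branch between pyruvate oxidation and lactate changed as well. PDK3, a kinase that shuts pyruvate dehydrogenase, went from 25.4 and 23.8 CPM to 195 and 199 CPM. PDK1 rose by 1.52 ± 0.09 and PDK4 by 1.28 ± 0.13, while PDK2 fell (-1.88 ± 0.27). The phosphatases PDP1 and PDP2, which reopen the complex, rose as well (1.27 ± 0.13 and 1.23 ± 0.09). DLAT, a core subunit of pyruvate dehydrogenase, fell (-1.27 ± 0.10), as did MPC1, which imports pyruvate (-0.89 ± 0.13). The list of 15 had 6 higher and 3 lower. LDHA and the lactate exporter SLC16A3 rose by 1.18 ± 0.10 and 1.29 ± 0.10.

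Glycogen genes rose on both the making and the breaking side. GYS1 (glycogen synthase, 1.89 ± 0.09), GBE1 (branching, 2.02 ± 0.09), UGP2 (1.78 ± 0.09) and PGM1 (1.38 ± 0.10) rose together with PYGL, the liver glycogen phosphorylase, which went from 262 and 249 CPM to 1694 and 1710.2 CPM. STBD1, a glycogen-binding protein, rose by 3.60 ± 0.24, and the glycogen phosphatase subunits PPP1R3B, PPP1R3C and PPP1R3E by 2.14, 1.87 and 1.87. In this list of 22, 11 (50%) were higher and 2 lower. The lower genes were GYG1 (-0.76 ± 0.12), which primes glycogen, and PCK2 (-1.41 ± 0.08), the mitochondrial counterpart of PCK1.

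Genes of the respiratory chain and of mitochondrial ribosomes went the other way, by smaller steps. Of 72 tested subunits of the respiratory chain and ATP synthase, 0 were called higher and 26 (36.1%) lower, with a median of -0.37. Among all tested genes 24.6% were higher and 27.3% lower. ATP5G1, a ring subunit of ATP synthase, went from 117 and 106 CPM to 25.7 and 26.3 CPM, and NDUFS6 and NDUFC2 of complex I fell (-1.36 ± 0.10 and -1.31 ± 0.14). The remaining calls lay between -0.97 and -0.60, and only 3 of the 26 were over 2-fold. In the TCA cycle 2 of 17 genes (11.8%) were higher and 2 (11.8%) lower, both under the shares of all genes. The lower ones were IDH3A (-1.41 ± 0.09) and FH (-1.24 ± 0.09). Mitochondrial ribosomal proteins had 5 (6.6%) higher and 34 (44.7%) lower of 76, with MRPL20 (-1.55 ± 0.10) and MRPL24 (-1.45 ± 0.10) the lowest. With library size alone 44 of the respiratory genes and 54 of the mitochondrial ribosomal genes were lower. TFAM, which packages and transcribes mitochondrial DNA, fell (-1.09 ± 0.10). BNIP3L went from 29.2 and 25.5 CPM to 501 and 446 CPM and BNIP3 rose by 3.24 ± 0.12, and both proteins mark mitochondria for removal. NDUFA4L2, a paralog of a respiratory chain subunit, rose by 3.73 ± 0.15. HIGD1A, another gene of this list of adaptors, fell (-1.23 ± 0.10).

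In the list of pH regulation and carbonic anhydrases 9 of 18 genes were higher and 3 lower. Besides CA9, CA12 went from 54.0 and 49.9 CPM to 205 and 179.7 CPM, and BSG, the chaperone of lactate carriers, rose by 0.93 ± 0.12. The intracellular carbonic anhydrases moved both ways, with CA5B (1.02 ± 0.16) and CA8 (0.95 ± 0.29) higher and CA2 (-0.66 ± 0.15) and CA13 (-0.75 ± 0.14) lower. The bicarbonate carriers split, with SLC4A8 higher (1.46 ± 0.27) and SLC4A2 lower (-0.89 ± 0.10).

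Secreted factors of vessels and growth gave a median of 1.58 with 13 of 22 higher (59.1%) and 4 lower. PDGFB, the second chain of platelet-derived growth factor, went from 0.229 and 0.027 CPM to 2.91 and 4.08 CPM. ANGPTL4 went from 35.7 and 28.6 CPM to 449 and 494 CPM, and STC1, a stanniocalcin, from 17.0 and 10.9 CPM to 307 and 304 CPM. The conditions did not overlap in any of them, as in 86.4% of all tested genes. IGFBP3 rose by 3.80 ± 0.16, ADM by 3.28 ± 0.10 and VEGFA by 1.49 ± 0.09. VEGFB (1.65 ± 0.10) and VEGFC (1.51 ± 0.14) rose about as much as VEGFA. FLT1, a VEGF receptor, rose by 3.90 ± 0.49, whereas the coreceptors NRP1 (-0.71 ± 0.16) and NRP2 (-0.70 ± 0.23) and endoglin, ENG (-1.34 ± 0.11), fell. By limma on log2(RPKM + 1), which shrinks changes of genes at low levels, FLT1 changed by only 0.11 and was not called. Without normoxia replicate 1 the NRP2 change was -0.35 (adjusted p = 0.191), and without hypoxia replicate 2 that of NRP1 was -0.45, under the fold threshold. EDN1 (endothelin) fell (-1.02 ± 0.22).

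Genes of the enzymes that modify collagen held some of the largest rises. LOX, which crosslinks collagen, went from 0.425 and 0.378 CPM to 20.1 and 17.4 CPM, and LOXL2 rose by 2.73 ± 0.12. The proline hydroxylases P4HA2 and P4HA1 rose by 4.07 ± 0.14 and 2.62 ± 0.11 and the lysine hydroxylase PLOD2 by 3.04 ± 0.14. In that list 10 of 21 were higher and 0 lower. Of 29 collagens, laminins and other matrix genes 13 were higher and 2 lower. COL13A1 rose by 2.93 ± 0.21, LAMA5 by 1.70 ± 0.11 and COL6A2 by 1.44 ± 0.14. COL6A3 (-1.17 ± 0.26) and THBS1, an inhibitor of vessel growth (-1.57 ± 0.26), fell, and COL1A1 (0.51) and COL4A1 (0.06) were not called.

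**Figure D3:**
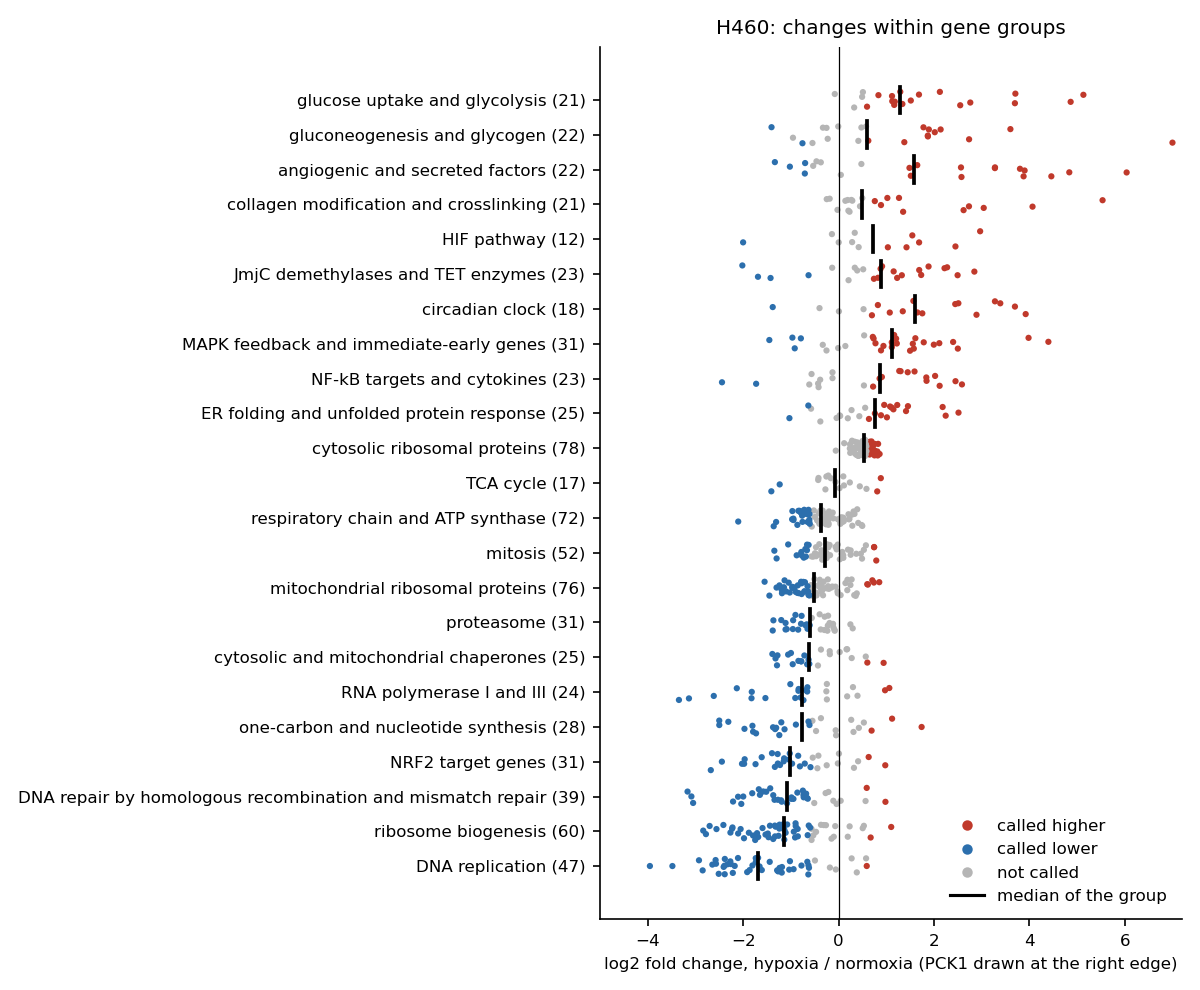
Log2 fold change of hypoxia over normoxia for every tested gene of 23 groups in H460, with the number of tested genes in parentheses. Red points were called higher, blue points lower and grey points were not called, and the black bar is the median of the group, from 1.61 for the circadian clock to -1.69 for DNA replication. PCK1, with no count in normoxia, is drawn at the right edge.

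DNA replication was the group that fell furthest. Of 47 tested genes 40 (85.1%) were called lower, against 27.3% of all genes, and 1 higher, with a median of -1.69. All 6 subunits of the MCM helicase fell. MCM6 went from 136 and 139.7 CPM to 12.1 and 12.5 CPM and MCM3 from 174 and 186 CPM to 22.2 and 24.96 CPM. MCM4 and MCM5 fell (-2.58 ± 0.09 and -2.39 ± 0.09), and MCM2 and MCM7 (-1.87 ± 0.09 and -1.74 ± 0.09). CDC45, which completes the helicase, fell (-2.85 ± 0.10), and its GINS partners changed by between -2.57 (GINS2) and -2.22 (GINS3). PCNA, the sliding clamp, went from 179 and 173 CPM to 29.8 and 31.8 CPM. FEN1 (-2.39 ± 0.10), POLE2 (-2.41 ± 0.14) and the chromatin assembly subunits CHAF1A (-2.26 ± 0.12) and CHAF1B (-2.65 ± 0.14) fell as well. Not called were LIG1 (0.27), ORC1 (0.38), CDT1 (0.58), DBF4 (-0.06), ORC2 (-0.18) and RPA1 (-0.50). RFC1 alone was called higher (0.59 ± 0.09), and not without normoxia replicate 1 (0.51) or under upper-quartile factors (0.45). Whether fewer cells were in S phase or each cell held less of these mRNAs cannot be told apart in bulk RNA.

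Of 21 cyclins, kinases, kinase inhibitors and E2F factors of the step from G1 to S phase 7 (33.3%) were higher and 11 (52.4%) lower. CCNE2, a cyclin E, went from 12.8 and 16.9 CPM to 1.46 and 1.56 CPM and CCNE1 fell (-2.89 ± 0.22). E2F2 fell (-3.57 ± 0.14), E2F8 (-2.27 ± 0.16) and CDK2 (-1.17 ± 0.09). The D cyclins split, with CCND1 (-2.09 ± 0.10) and CCND3 (-2.10 ± 0.12) lower and CCND2 higher (1.44 ± 0.39). CCND2 was not called by limma on log2(RPKM + 0.1) (0.50) or on log2(RPKM + 1) (0.09). The kinase inhibitors CDKN1C (2.85 ± 0.54), CDKN1A (1.90 ± 0.12), CDKN2D (1.75 ± 0.15) and CDKN1B (1.64 ± 0.09) rose, and CDKN2C (-0.24) was not called. CDKN1A went from 44.5 and 36.2 CPM to 165 and 136 CPM. The pocket proteins moved apart, as RBL2 (0.90 ± 0.08) and RB1 (0.66 ± 0.09) rose and RBL1 fell (-2.41 ± 0.12).

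Genes of mitosis had a median much closer to that of all genes. Of 52 tested, 13 (25%) were lower and 3 (5.8%) higher, against 27.3% and 24.6% of all genes, with a median of -0.29. The share of lower genes was thus close to that of all genes. The kinetochore genes SPC25 (-1.30 ± 0.13) and CENPK (-1.35 ± 0.10) fell. Scaling by library size alone gave 30 lower genes. MKI67 (-0.46 ± 0.09), CCNB1 (-0.53 ± 0.10) and TOP2A (0.10 ± 0.10) were under the fold threshold, and BUB1 rose by 0.75 ± 0.10.

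Repair genes fell alongside. Of 39 genes of homologous recombination, the Fanconi pathway and mismatch repair, 30 (76.9%) were lower and 2 higher. EXO1, a nuclease of both pathways, went from 272 and 303 CPM to 32.7 and 34.9 CPM. XRCC3 fell (-3.17 ± 0.13) and XRCC2 (-3.05 ± 0.11). BRCA1 went from 104 and 108 CPM to 20.1 and 25.3 CPM and BRCA2 fell (-1.27 ± 0.14). In mismatch repair PMS1 (-1.34 ± 0.12) and MSH6 (-0.68 ± 0.10) fell, PMS2 (-0.11) was not called and MSH3 rose by 0.59 ± 0.10.

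Genes that assemble ribosomes fell, and genes that encode ribosomal proteins did not. Of 60 ribosome biogenesis genes 44 (73.3%) were lower and 2 higher, with a median of -1.15. RRS1 went from 32.9 and 31.6 CPM to 4.44 and 4.56 CPM, NOP56, a core protein of snoRNA particles, from 517 and 565 CPM to 73.3 and 83.98 CPM, and NOP16 fell (-2.70 ± 0.11). NCL (nucleolin) fell (-1.14 ± 0.10), whereas NPM1 (0.51) and FBL (0.19) were not called. Of 24 RNA polymerase I and III genes 16 were lower, among them POLR3K (-3.35 ± 0.15), CD3EAP (-3.14 ± 0.16) and the large polymerase I subunit POLR1A (-2.13 ± 0.10). POLR3D (1.06 ± 0.10) and POLR1D (0.97 ± 0.09) rose.

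The 78 cytosolic ribosomal protein mRNAs were tightly grouped, between -0.06 (FAU) and 0.86 (RPL13A). Under TMM scaling 28 were called higher and 0 lower, with a median of 0.54. With library size alone the median was 0.19 and no gene of the group was called, and upper-quartile factors called 11. Aminoacyl-tRNA synthetases had 2 higher and 10 lower of 23, with FARSB (-2.15 ± 0.09), EEF1E1 (-1.83 ± 0.13) and VARS (-1.55 ± 0.09) the lowest and DARS higher (0.92 ± 0.08).

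MYC, which drives many of these genes, was not called (262 and 237 CPM in normoxia and 199 and 188 CPM in hypoxia, log2 fold change -0.36 ± 0.09). That depended on the scaling, as MYC was called lower with library size alone (-0.72) and by limma on log2(RPKM + 0.1) (-0.71). In the MYC and MAX network 5 of 12 genes were higher and 1 lower, against 4 and 5 with library size alone. Several antagonists of MYC were among the higher genes. MXI1 went from 17.6 and 14.6 CPM to 161 and 160.4 CPM, MXD1 rose by 2.48 ± 0.13, MNT by 1.91 ± 0.09 and MXD4 by 0.84 ± 0.11. MAX, the partner shared by MYC and these antagonists, rose by 1.21 ± 0.10. The antagonists MXD3 (0.36) and MGA (-0.45) were not called.

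Genes of nucleotide synthesis fell as well. Of 28 one-carbon and nucleotide genes 16 (57.1%) were lower and 3 higher. PFAS of purine synthesis fell (-2.50 ± 0.09), and CAD, which starts pyrimidine synthesis, went from 204 and 214 CPM to 34.8 and 38.9 CPM. CTPS1 fell (-2.31 ± 0.09) and the cytosolic MTHFD1 (-1.79 ± 0.09). Mitochondrial SHMT2 rose by 1.12 ± 0.09 while cytosolic SHMT1 fell (-1.73 ± 0.10). Ribonucleotide reductase fell in both subunits, RRM2 (-1.24 ± 0.09) and RRM1 (-0.62 ± 0.09).

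Targets of NRF2, the regulator of antioxidant genes, formed another falling group. Of 31 tested, 21 (67.7%) were lower and 2 higher, with a median of -1.02. AKR1B10, an aldo-keto reductase, went from 729 and 632 CPM to 102 and 110.2 CPM and SLC7A11 from 995 and 1103 CPM to 254 and 261 CPM. GCLM and GCLC, the subunits of the enzyme that limits glutathione synthesis, fell (-1.98 ± 0.09 and -1.28 ± 0.09), and SRXN1 fell (-1.97 ± 0.09). NQO1, often used as a marker of NRF2 activity, was not called, at 1456 and 1435 CPM in normoxia and 1460.1 and 1446 CPM in hypoxia (log2 fold change 0.01 ± 0.10, adjusted p = 0.95). The mRNAs of NRF2 itself, NFE2L2 (0.41), and of its inhibitor KEAP1 (-0.54) were not called. FTH1 (ferritin) and TKT rose (0.98 ± 0.10 and 0.63 ± 0.11). AKR1C1, AKR1C2 and AKR1C3, which fell, are close copies of each other and may share reads.

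Stress programs of amino acids and of the endoplasmic reticulum (ER) moved apart. Of 30 ATF4-associated genes 12 were lower and 5 higher. Serine synthesis enzymes PSAT1 (-1.69 ± 0.10) and PSPH (-1.58 ± 0.13), the transcription factor ATF5 (-2.05 ± 0.15) and CHAC1 (-1.05 ± 0.10) fell. PPP1R15A (1.8 ± 0.11), DDIT3 (1.46 ± 0.11) and ATF3 (1.14 ± 0.15) rose, and ATF4 itself was under the fold threshold (0.53 ± 0.10). In the ER list 14 of 25 (56%) were higher and 2 lower. HSPA5, the main ER chaperone, went from 2345 and 2122 CPM to 5486 and 4425 CPM. ERO1L, the oxidase that spends oxygen in disulfide formation, rose by 2.51 ± 0.11, HERPUD1 by 2.24 ± 0.11, DNAJB9 by 2.18 ± 0.16 and the sensor EIF2AK3 by 1.23 ± 0.10. SDF2L1 (-1.03 ± 0.10) and DNAJB11 (-0.63 ± 0.09) fell, and XBP1 (0.27) and CALR (0.19) were not called.

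Genes of protein quality control outside the ER fell. Of 31 proteasome subunits 16 (51.6%) were lower and 0 higher, from PSMA3 (-1.38 ± 0.09) and PSMD1 (-1.37 ± 0.09) to PSMD6 (0.30, not called). Of 25 cytosolic and mitochondrial chaperones 14 were lower. HSP90AA1 went from 1117 and 1161 CPM to 432 and 479 CPM, CCT5, a subunit of the chaperonin for actin and tubulin, fell (-1.39 ± 0.09), and HSPE1 (-1.29 ± 0.09). The constitutive HSPA8 (0.94 ± 0.12) and HSP90AB1 (0.60 ± 0.10) rose.

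Of 24 genes of fatty acid synthesis and lipid droplets 8 (33.3%) were higher and 7 (29.2%) lower, shares close to those of all genes. PLIN2, which coats lipid droplets, went from 2.42 and 1.54 CPM to 30.3 and 30.9 CPM, and HILPDA, an inhibitor of droplet lipolysis, rose by 3.17 ± 0.16. Among enzymes of fatty acid synthesis ACACA fell (-1.37 ± 0.09), FASN (-1.29 ± 0.11) and ELOVL6 (-1.91 ± 0.13), while ACSS2, which makes acetyl-CoA from acetate, rose by 2.08 ± 0.09 and SCD by 1.25 ± 0.12. DGAT2, which makes triglyceride, fell (-2.41 ± 0.33). In sterol synthesis 9 of 23 were higher and 3 lower. INSIG1 (1.73 ± 0.09) and HMGCS1 (1.48 ± 0.10) rose and EBP (-1.39 ± 0.11) fell.

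Circadian clock genes had the highest median of the 47 lists, 1.61, next to 1.58 for the secreted factors, with 14 of 18 (77.8%) higher and 1 lower. The repressors BHLHE41 and PER1 went from 1.6 and 2.03 CPM to 24.2 and 31.2 CPM and from 25.5 and 23.9 CPM to 340.4 and 300.2 CPM. DBP, an output factor of the clock, rose by 3.39 ± 0.25, NR1D1 by 3.28 ± 0.18, RORA by 2.89 ± 0.11 and TEF by 2.51 ± 0.13. BHLHE40, a known HIF target, rose by 1.76 ± 0.09. The core activator CLOCK was not called (-0.40 ± 0.10), ARNTL rose by 0.82 ± 0.11 and its paralog ARNTL2 fell (-1.38 ± 0.19).

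Immediate-early genes and the feedback inhibitors of MAPK signalling rose after 24 h. Of 31 tested, 22 (71.0%) were higher and 4 lower, with a median of 1.12. SPRY1, an inhibitor of receptor tyrosine kinase signalling, went from 0.589 and 0.216 CPM to 8.85 and 7.68 CPM, and FOSB, a partner of JUN, from 0.818 and 0.405 CPM to 9.46 and 9.5 CPM. JUN (1.78 ± 0.17), FOS (1.56 ± 0.14), DUSP1 (1.61 ± 0.09), ERRFI1 (2.50 ± 0.10) and EGFR (1.16 ± 0.09) rose together with the EGFR ligands TGFA (2.11 ± 0.23) and EREG (2.00 ± 0.20). EGR1 was not called (-0.33 ± 0.39), and its direction rested on the normoxia libraries, at -1.01 without normoxia replicate 1 and 0.87 without normoxia replicate 2. In the same list ERBB2 (-0.79 ± 0.10), ERBB3 (-0.92 ± 0.29) and the ligand HBEGF (-0.97 ± 0.17) fell.

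In the NF-kB list 13 of 23 were higher and 2 lower. NFKB2 went from 41.5 and 36.9 CPM to 258 and 213 CPM and RELB rose by 2.12 ± 0.23, both being subunits of the noncanonical pathway, with BIRC3 at 2.45 ± 0.15. The canonical NFKB1 was not called (-0.13 ± 0.10). IL1A (2.02 ± 0.15), IL1B (1.84 ± 0.47) and CXCL8 (1.45 ± 0.12) rose, while CSF1 (-2.45 ± 0.13) and CXCL2 (-1.73 ± 0.20) fell. Interferon and antigen presentation genes were mixed, with 11 of 31 (35.5%) higher and 6 (19.4%) lower, and 7 higher with library size alone. HLA-B (1.90 ± 0.19), HLA-E (1.40 ± 0.12) and HLA-C (1.09 ± 0.22) rose, MX1 (-2.12 ± 0.38) and TAP2 (-1.58 ± 0.10) fell, and B2M was not called (0.30 ± 0.12). HLA class I genes are close copies of each other, so their single values are uncertain.

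Several genes that restrain growth signalling rose. DDIT4 rose by 1.45 ± 0.11, DDIT4L by 2.23 ± 0.10, FOXO3 by 1.93 ± 0.11, FOXO4 by 1.95 ± 0.14 and ARRDC3 by 2.12 ± 0.09, and MTOR fell (-1.29 ± 0.10). The list had 10 of 26 (38.5%) higher and 3 (11.5%) lower, against 24.6% and 27.3% of all genes. With library size alone 9 were higher and 6 lower. TXNIP, a glucose-responsive arrestin-domain gene, was not called (-0.21 ± 0.20), and its relative ARRDC4 fell (-1.14 ± 0.15). In autophagy WIPI1 rose by 2.05 ± 0.12, GABARAPL1 by 1.53 ± 0.11 and MAP1LC3B by 1.03 ± 0.09, within 11 of 31 higher and 2 lower. CTSL, a lysosomal protease, fell (-0.72 ± 0.12). With library size alone 5 of these 31 were higher and 5 lower.

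Of 16 BCL2 family genes, which include BNIP3 and BNIP3L, 8 (50%) were higher and 4 (25%) lower, the latter close to the share of all genes. MCL1 (which protects cells) rose by 1.89 ± 0.11 and BBC3 (which kills them) by 1.86 ± 0.11, and BCL2 (-1.79 ± 0.17) and BID (-1.82 ± 0.13) fell.

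The kinases CLK1 and CLK3, which phosphorylate splicing factors, rose by 2.27 ± 0.11 and 2.31 ± 0.11, in a list of splicing factors and their kinases with 6 of 22 genes (27.3%) higher and 6 lower, shares close to those of all genes. Among SR proteins SRSF4 (0.73 ± 0.10) and SRSF5 (0.63 ± 0.09) were higher and SRSF2 (-1.02 ± 0.10), SRSF7 (-0.76 ± 0.09) and SRSF3 (-0.67 ± 0.09) lower. CLK1 went from 139 and 151 CPM to 768 and 632 CPM.

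Of 23 genes that mark epithelial or mesenchymal state 10 were higher and 2 lower. SNAI2 (2.86 ± 0.14), ZEB2 (1.00 ± 0.10) and VIM (2.06 ± 0.11) rose, and so did ITGB4 (2.85 ± 0.12), KRT19 (1.22 ± 0.10) and ELF3 (1.6 ± 0.26). VIM went from 1046 and 965 CPM to 4344 and 4056 CPM. The tight junction gene OCLN fell (-1.89 ± 0.29). In the TGF-beta list 10 of 27 (37.0%) were higher and 3 (11.1%) lower, against 4 and 6 with library size alone. SMAD9 went from 2.13 and 2.19 CPM to 21.9 and 19.3 CPM, INHBA (an activin chain) rose by 2.55 ± 0.15, and INHBE (-3.27 ± 0.39) and SMAD1 (-1.5 ± 0.14) fell. Of 21 YAP targets and Hippo kinases 7 were higher and 4 lower. AXL rose by 2.48 ± 0.11, ANKRD1 (-1.06 ± 0.28) and CTGF (-0.74 ± 0.14) fell, and CYR61 was not called (-0.35 ± 0.17). YAP1 (0.92) and WWTR1 (0.77) rose. With library size alone 1 gene of that list was higher and 7 lower.

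In the list of adenosine and calcium genes 8 of 19 were higher and 3 lower. NT5E (CD73), which makes extracellular adenosine, rose by 1.5 ± 0.09, and the receptors ADORA2A and ADORA2B by 1.70 ± 0.45 and 1.62 ± 0.16. The receptor ADORA1 and the ectonucleotidase ENTPD1 did not pass the filter on low counts. Among calcium genes ORAI3 rose (1.94 ± 0.14) and ORAI1 (-1.20 ± 0.14), STIM2 (-1.24 ± 0.12) and ITPR1 (-1.09 ± 0.09) fell. In iron handling 5 of 18 genes (27.8%) were higher and 6 (33.3%) lower, shares close to those of all genes. CP (ceruloplasmin) rose by 2.34 ± 0.23 and the mitochondrial carrier SLC25A37 by 1.95 ± 0.10, while TFRC (-0.94 ± 0.10), the iron exporter SLC40A1 (-1.33 ± 0.24) and HMOX1 (-0.81 ± 0.09) fell. The metallothioneins MT2A (1.14 ± 0.11) and MT1X (1.07 ± 0.38) rose, and MT1X was not called without normoxia replicate 2 (0.78, adjusted p = 0.163) or hypoxia replicate 1 (0.53, adjusted p = 0.305).

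Of 28 long noncoding RNAs 6 (21.4%) were higher and 10 (35.7%) lower, against 24.6% and 27.3% of all genes. MIR210HG, the host of miR-210, went from 8.38 and 5.46 CPM to 112 and 114 CPM, and HIF1A-AS2 rose by 3.30 ± 0.25. NEAT1 rose by 0.78 ± 0.15 and MALAT1 was not called (0.39 ± 0.18). MIR17HG, the host of the miR-17 cluster, fell (-2.46 ± 0.17), and so did the snoRNA hosts SNHG12 (-1.82 ± 0.14), SNHG15 (-1.5 ± 0.10), SNHG3 (-1.23 ± 0.09) and SNHG1 (-1.19 ± 0.10). GAS5, another snoRNA host, was not called (-0.09 ± 0.09).

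The H460 response was then set against the mean response of RKO and A549, in a joint edgeR fit of all 12 libraries that tested the difference itself. Of 15595 genes, 2244 (14.4%) had a higher and 2931 (18.8%) a lower change in H460, at an adjusted p under 0.1 and fold changes that differed by a factor over 1.5. Of the 3467 genes called higher in H460, 1886 (54.4%) rose more than in the mean of the other lines, and 1384 (39.9%) passed against each line separately. Of the 3837 called lower, 2244 (58.5%) fell more, and 1597 (41.6%) passed against each line. Both sets were chosen by their change in the same H460 libraries, which by itself raises these shares over those of all genes. No matching count was made for genes called in RKO or A549, so the shares do not compare the strength of response between lines. For 28 genes called higher in H460, the rise was smaller than in the other lines. Scaling by library size alone gave 1113 higher and 4773 lower differences.

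Replication separated H460 from the other lines. Of 47 replication genes 35 changed lower in H460 than in the mean of the others and 2 higher, against a background of 18.8%. The median change in this fit was -1.67 in H460, -0.31 in RKO and -0.32 in A549. MCM6 changed by -3.47 ± 0.25 in H460, -0.74 ± 0.22 in RKO and -0.33 ± 0.22 in A549, a difference of -2.94 ± 0.28 (adjusted p = 1.33e-05). PCNA changed by -2.50 ± 0.27, -0.33 ± 0.26 and -0.19 ± 0.26 in the same order. The same held for 25 of 39 repair genes, with medians of -1.07, -0.02 and -0.20, and BRCA1 differed (-2.20 ± 0.23). E2F1 changed by -3.74 ± 0.29 in H460, 0.19 ± 0.25 in RKO and -0.61 ± 0.25 in A549. CCNE2 changed by -3.28 ± 0.35 in H460 against 0.38 ± 0.28 in RKO and 0.15 ± 0.30 in A549.

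Ribosome biogenesis did not separate H460 from both other lines. Its median was -1.13 in H460, -1.18 in RKO and -0.51 in A549. In H460 17 of 60 genes changed lower and 7 higher than in the mean of the others, against 18.8% and 14.4% of all genes. NRF2 targets had medians of -0.98, -0.15 and -0.29, with 16 of 32 lower in H460. GCLM changed by -1.97 ± 0.16 in H460, -0.48 ± 0.16 in RKO and -0.56 ± 0.15 in A549. Among rising groups the clock had medians of 1.63 in H460, 0.42 in RKO and 0.20 in A549, and 13 of 18 genes changed higher in H460. PER1 changed by 3.71 ± 0.33, 0.89 ± 0.30 and -0.27 ± 0.31. For immediate-early and feedback genes the medians were 1.04, 0.19 and -0.04, with 17 of 34 higher in H460.

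**Figure D4:**
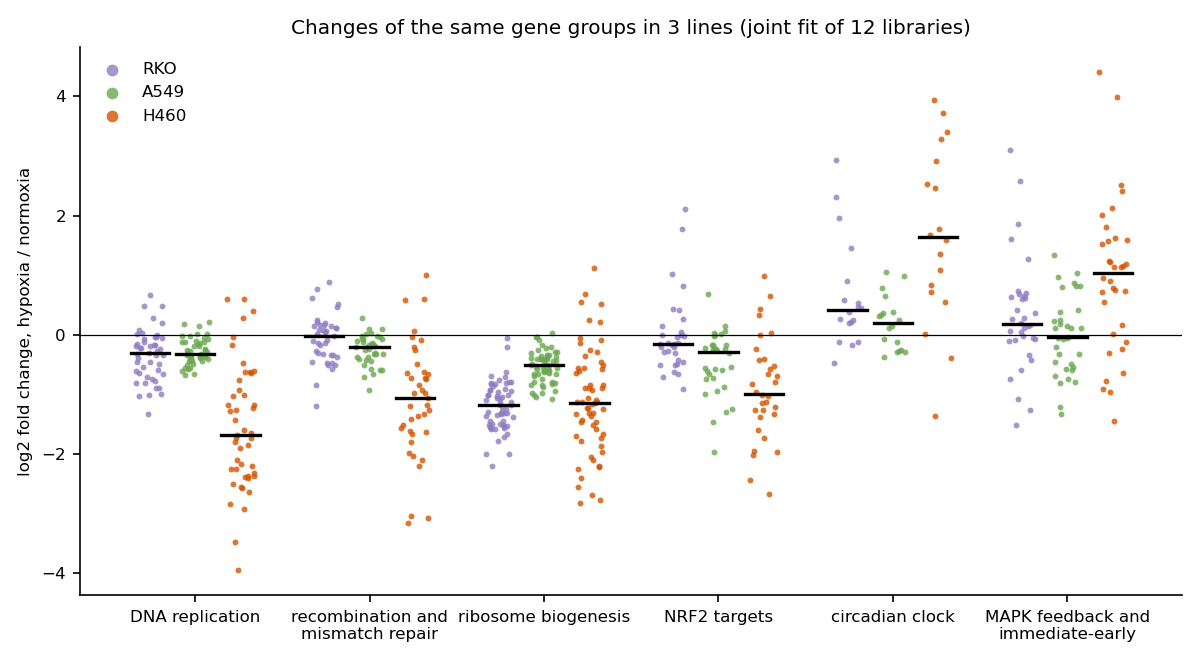
Log2 fold change of hypoxia over normoxia of each gene of 6 groups in RKO, A549 and H460, from the joint fit of the 12 libraries, with black bars at the medians. In H460 the replication genes centre on -1.67, against -0.31 in RKO and -0.32 in A549. Ribosome biogenesis genes centre on -1.13 in H460, -1.18 in RKO and -0.51 in A549.

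Single genes with the largest differences were on both sides. PDGFA changed by 6.05 ± 0.30 in H460, 0.82 ± 0.26 in RKO and 1.36 ± 0.25 in A549. FOSB changed by 3.99 ± 0.35 in H460, -0.08 ± 0.26 in RKO and -0.68 ± 0.34 in A549. KIAA1244, CAPN12, NRN1 and PPFIA4 rose more in H460 than in the mean of the others, by 4.03 ± 0.25, 4.07 ± 0.49, 3.95 ± 0.34 and 4.69 ± 0.54. PPFIA4 was close to silent in RKO, between 0.292 and 0.753 CPM in the 4 RKO libraries. It also rose in A549, by 3.88 ± 0.40, and its H460 minus A549 difference was 2.76. CAPN12 rose in RKO (2.01 ± 0.38) and A549 (1.22 ± 0.31), as did KIAA1244 (0.70 ± 0.17 and 2.11 ± 0.21). NRN1 rose in RKO (1.55 ± 0.26) but was not called in A549 (0.55 ± 0.29). ITPR1, a calcium channel of the ER, changed by -1.07 ± 0.26 in H460 against 3.23 ± 0.27 in RKO and 2.25 ± 0.27 in A549. TBC1D30 changed by -3.22 ± 0.36 in H460, -1.20 ± 0.31 in A549 and 2.26 ± 0.37 in RKO. The changes of STRIP2 and PSEN2 were lower in H460 than in the mean of the others, with differences of -3.51 ± 0.25 and -3.44 ± 0.41.

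**Figure D5:**
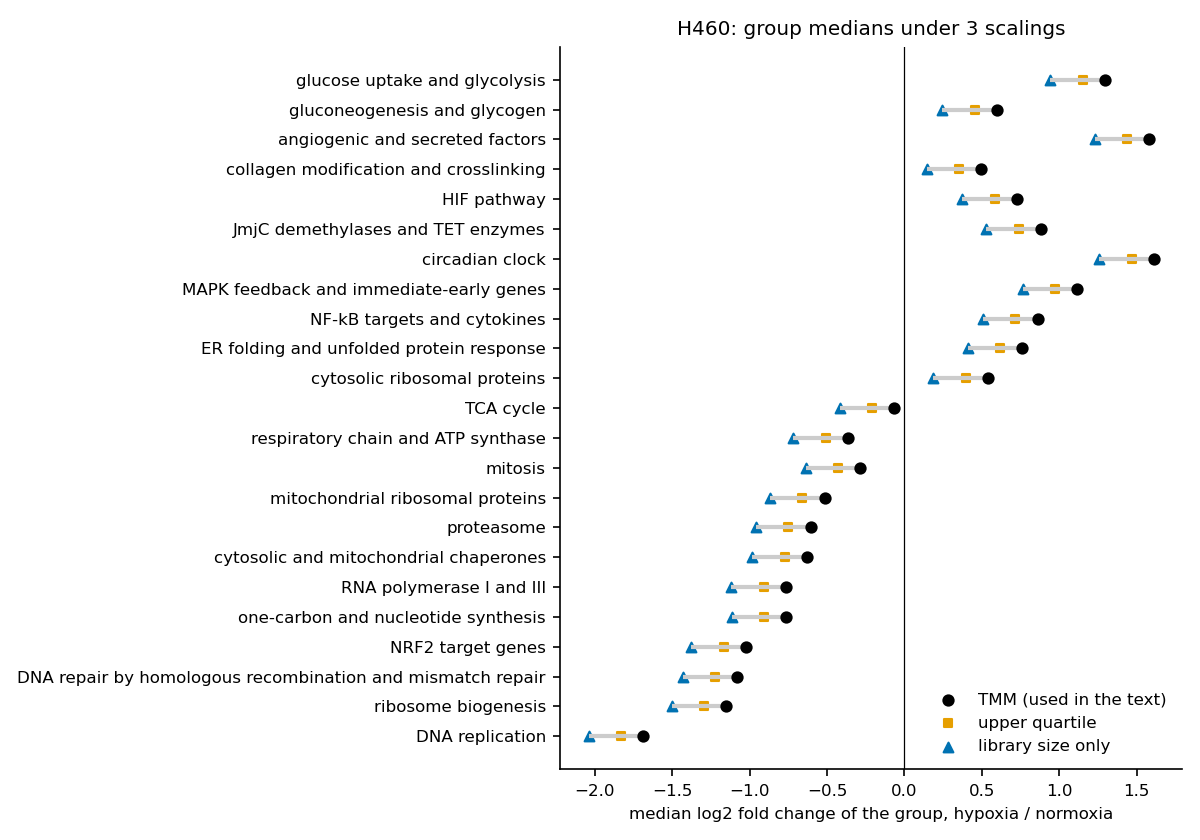
Median log2 fold change of 23 gene groups in H460 under TMM factors (black circles), upper-quartile factors (orange squares) and library size alone (blue triangles). Each median moves down by about 0.35 from TMM to library size alone, as from 1.29 to 0.94 for glycolysis and from -1.69 to -2.04 for DNA replication.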

How the data were processed

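Poly(A)+ RNA of 12 libraries was sequenced as strand-specific single-end reads. Per the study's methods and the submitters' processing notes, the authors trimmed the reads, aligned them to GRCh37 (hg19) with TopHat2 2.0.13, dropped alignments of low quality, marked duplicates with Picard 1.129 and counted reads per gene and strand with HTSeq 0.6.1. The authors deposited raw read counts per gene and a table of RPKM, which equalled the CPM per kilobase of summed exon length to within a relative 1e-6 for 100% of the values. Gene starts in that table count from 0 and are printed here counted from 1.

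The 4 H460 libraries were fitted alone with edgeR 4.0.16 in R 4.3.3 (TMM factors, quasi-likelihood test, Benjamini-Hochberg adjustment) for the 14080 genes over 0.5 CPM in at least 2 libraries. A gene was called at an adjusted p under 0.1 and a fold change over 1.5. A joint fit of the 12 libraries tested the H460 effect minus the mean effect of RKO and A549 over 15595 genes. The replicates of a condition differed by more than counting noise (chi-square per degree of freedom of 13.5 in normoxia and 10.1 in hypoxia), so that none was a repeated library. The biological coefficient of variation was 7.91%, and log2 fold changes had a standard error of 0.11 at the median gene. Counting intervals are exact, at 95%, and cover counting error only.

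The genes, the 47 gene lists and the comparisons were chosen with earlier results of these data known. Genes named are list members, beginning with the largest changes and with uncalled members for contrast, and beyond the lists the 8 highest and 8 lowest fold changes among called genes with a mean of at least 100 counts, at least 10 counts in every library and no overlap between conditions, the genes highest in one condition with under 10 counts in every library of the other (5 rising, 3 falling), the 8 largest gains and losses of CPM and the 6 largest differences from the other lines in each direction. Alternatives were DESeq2 1.42.0, other scaling factors, filters and fold thresholds, limma 3.58.1 on log2(RPKM + 0.1) and log2(RPKM + 1), the replicate number as a block, the joint fit and leaving out each library. Promoter windows from GRCh37 were added after seeing the data, since the RefSeq table held under 80% of the tested genes. The fits were tested on simulated counts with 200 changed genes, as many raised as lowered. Far more genes were called in the data, so the simulation could not test the choice of scaling. Some genes are not reported here.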

Additional observations from a re-analysis of the deposited data

Results flagged for a closer look

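The H460 response differed from the mean response of RKO and A549 in many genes by the test of the difference itself, with 2244 genes changing more upward and 2931 more downward in H460. Among genes called in H460, with enough counts in every library, the log2 differences were highest for PDGFA (4.96), PPFIA4 (4.69), FOSB (4.37), CAPN12 (4.07), KIAA1244 (4.03) and NRN1 (3.95). They were lowest for ITPR1 (-3.81), TBC1D30 (-3.75), CCNE2 (-3.54), E2F1 (-3.53), STRIP2 (-3.51) and PSEN2 (-3.44). CCNE2 and E2F1 act at entry into S phase. All 12 differences passed the test against RKO and against A549 taken singly, and kept their direction with each H460 library left out in turn. The 12 were chosen as extremes of this same contrast in the same libraries, so both results follow largely from the choice. The line and its medium cannot be told apart here.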

How the results depend on the processing

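The count of calls in H460 depended on the scaling, the fold threshold and the tool. Against 3467 higher and 3837 lower genes, library size alone gave 2075 and 5758, a fold change over 2 gave 1904 and 2356, and no minimum fold change gave 5345 higher and 5585 lower. Limma called 2015 higher and 5605 lower genes on log2(RPKM + 0.1), 1603 and 4461 on log2(RPKM + 1), and 2225 higher and 6087 lower without a filter. Leaving out 1 library gave 3248 to 3462 higher and 3441 to 3822 lower genes. DESeq2 gave 3527 and 3507, of which 3368 and 3507 were shared with edgeR, and 50.1% of its calls were higher. The share of calls higher was 38.4% with upper-quartile factors and 26.5% with library size alone. For the difference from the other lines, 2244 and 2931 became 1113 and 4773 with library size alone, where the median difference shifted by -0.33, and lay between 1834 and 2241 and between 2017 and 2509 with 1 H460 library left out. Replicate numbers did not pair the samples by any label, and with 2 pairs the correlation of their deviations was 0.11. With a replicate block 3478 and 3861 genes were called in H460 and 2354 and 3144 for the difference.

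With library size alone the lower counts rose from 3 to 7 for pyruvate genes, 2 to 6 for the TCA cycle and for glycogen, 3 to 5 for pH regulation, 4 to 7 for secreted factors, 3 to 6 for sterol synthesis, 7 to 11 for fatty acid and droplet genes and 2 to 7 for NF-kB targets, and the higher counts fell from 8 to 3 for DNA methylation and Polycomb enzymes, 6 to 3 for splicing factors and 8 to 5 for the BCL2 family. Of the genes named, EGR1 alone changed direction past the threshold (0.87 without normoxia replicate 2 and -1.01 without normoxia replicate 1). Calls near the fold threshold were lost without normoxia replicate 1 for HK1 (0.58), MSH3 (0.56), DNAJB11 (-0.58), RING1 (0.57), SRSF4 (0.56) and SRSF5 (0.56), without normoxia replicate 2 for CBX8 (0.47), HK1 (0.54), HSP90AB1 (0.50), MSH3 (0.54), RB1 (0.54) and TKT (0.48), without hypoxia replicate 1 for CA2 (-0.54), HK1 (0.55), HSP90AB1 (0.57), NEAT1 (0.57), RRM1 (-0.56) and TET3 (-0.55), and without hypoxia replicate 2 for CTGF (-0.51), CTSL (-0.57), DNAJB11 (-0.55), MSH3 (0.54) and MSH6 (-0.54).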

Other observations

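Small nucleolar RNAs, which guide the modification of ribosomal RNA and lie within introns of host genes, were read for 170 genes in these poly(A)+ libraries. Of these, 105 (61.8%) were called lower and 16 (9.4%) higher, against 27.3% and 24.6% of all tested genes, with a median of -1.0. The snoRNA genes overlap their hosts, so the counting could assign reads of a host to a snoRNA or the reverse. Of 627 long noncoding RNAs by RefSeq class 238 were lower and 127 higher.

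Chromosome 19 had the highest share of higher calls among the autosomes and X. Of its 954 tested genes 33.0% were higher and 19% lower, against 24.6% and 27.3% of all tested genes. The chromosome holds many zinc finger genes, but the shares were 29.0% higher and 13.6% lower for its 176 genes named ZNF and 33.9% and 20.2% for its 778 other genes. The 236 ZNF genes elsewhere had 14.4% higher and 28.4% lower. On chromosome X 27.8% of 468 genes were higher and 19.7% lower. These shares are descriptions without a test, since neighbouring genes are not independent.

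The direction of calls also moved with transcript length and level. In the shortest of 5 equal classes of summed exon length 18.7% were higher and 33.6% lower, and in the longest 31.6% were higher and 20.3% lower. By mean RPKM the lowest of 5 classes had 22.1% higher and 39.7% lower and the highest 29.5% and 18.8%. The part of length and level in the gene group results was not tested.

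Beyond PCK1 and ISM2, a few genes went from almost no reads to a clear signal and are named after their values were seen. NOD2, a sensor of bacterial peptides, had 1 and 3 counts in normoxia and 246 and 221 in hypoxia. SEC14L5 had 1 and 2 counts in normoxia and 240 and 207 in hypoxia, and SLAMF9 had 0 and 2 counts in normoxia and 219 and 128 in hypoxia. JAM2, a junction adhesion molecule, had 0 and 1 counts in normoxia and 54 and 47 in hypoxia.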
